A study of Mus musculus with 12 samples.

Results

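The genes described here code for the proteins of the mitochondrial ribosome. They were chosen by symbol, as every row of the deposited table whose name starts with Mrpl or Mrps followed by a number, and they were 78 of 21958 genes: 49 of the large subunit (Mrpl) and 29 of the small subunit (Mrps). Of these, 77 had enough counts to be tested, 48 large and 29 small, among 12549 genes tested in all. RNA was sequenced from bone marrow cells of WT mice in 3 groups of 4 samples. The cornus group was labelled as given Cornus officinalis, in the form of self-assembled nanoparticles. The model group was given CTX to suppress the marrow. The control group was untreated. The labels do not say whether cornus mice also received CTX, and they give no dose, time, age or strain. Samples are called biological replicates in the design text, which does not say whether each came from its own mouse, so the p-values below measure the spread between these samples.

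Mitochondria keep a ribosome of their own, descended from that of bacteria, which translates the few mRNAs of the mitochondrial genome. All of those mRNAs code for subunits of the respiratory chain and ATP synthase. The RNAs of this ribosome are made inside the organelle, whereas its proteins are encoded in the nucleus, translated in the cytosol and imported. The small subunit reads the mRNA, and the large subunit joins the amino acids and lets the new chain out through an exit tunnel toward the inner membrane. Some of the proteins have a counterpart in bacteria and others were added in the mitochondrial lineage. In the marrow, erythroid precursors and dividing progenitors are known for high mitochondrial activity, and mature neutrophils for few mitochondria.

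Libraries held 13902122 to 19139771 counts, of which 19679 to 35666 came from these 78 genes. Control 4 stood apart from the other controls. It lay above the mean of controls 1 to 3 in 73 of the 77 tested genes, by a median of 0.46 on the log2 scale, against 0.03 over all tested genes. Controls 1 to 3 in turn lay close to each other: the chi-square statistic per degree of freedom between their counts was 1.72 to 1.92, against 12.9 to 147 for the 15 other pairs within a group. Each comparison with control was therefore fitted with all 12 samples and again with controls 1 to 3 summed to 1 sample. The second fit sets control 4 beside 1 summed control, so control 4 weighs more there than in the fit of all samples. The words rose and fell are used against control for genes with an edgeR adjusted p under 0.05 in both fits. Unless stated otherwise, the standard errors and adjusted p-values below are from the fit of all 12 samples. That fit counts controls 1 to 3 as separate replicates. If they came from 1 source, which the labels do not say, these values overstate the precision against control. All groups share 1 estimate of the spread in that fit, so the values for cornus against model would be affected as well.

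The marrow also differed in the RNA of its cell types. Hemoglobin transcripts took 0.0218%, 1.57%, 0.448% and 1.4% of counts in cornus samples 1 to 4, 0.0249%, 0.942%, 0.463% and 0.332% in model samples, and 2.49%, 2.47%, 2.45% and 9.8% in controls. The 13 erythroid markers in the table, of 14 listed, summed to 434 to 20240 CPM in cornus, 691 to 13709 CPM in model and 28704 to 112893 CPM in control. The 12 B lineage markers summed to 14.3 to 201 CPM in cornus, 101 to 149 CPM in model and 1064 to 2423 CPM in control, and the 9 eosinophil markers to 117 to 177 CPM in cornus, 99.8 to 702 CPM in model and 4243 to 5817 CPM in control. The 14 S phase genes summed to 2464 to 2686 CPM in cornus, 2580 to 3294 CPM in model and 2700 to 3717 CPM in control, and the 12 G2 and mitosis genes to 4209 to 5043 CPM in cornus, 3883 to 5202 CPM in model and 3581 to 4653 CPM in control. The 8 promyelocyte markers summed to 4413 to 8192 CPM in cornus, 5035 to 8772 CPM in model and 3272 to 3685 CPM in control, and the 9 monocyte markers to 5378 to 6271 CPM in cornus, 3269 to 6248 CPM in model and 1373 to 3976 CPM in control. The 12 late neutrophil markers summed to 38630 to 61660 CPM in cornus, 21318 to 38992 CPM in model and 39960 to 61046 CPM in control. Such sums weigh the most abundant markers most, and the erythroid list includes hemoglobin genes. Marker by marker, 10 of the 12 late neutrophil genes were below 0 in cornus against control and 2 above. Their median log2 change was -0.50, and 3 fell (25%, against 19.7% of all tested genes). The 10 stem and progenitor markers summed to 144 to 278 CPM in cornus and 226 to 292 CPM in model. In control they summed to 156 to 192 CPM, so every model sample lay above every control. The 11 T and NK cell markers in the table, of 12 listed, summed to 154 to 243 CPM in cornus. Their sums were 155 to 341 CPM in model and 190 to 212 CPM in control. No marker of these lists was at 0 in all samples. In bulk RNA, fewer cells of a type and less RNA per cell cannot be told apart. The part of these cell types in the results below was not tested.

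Summed over all members, mitochondrial ribosomal protein mRNA was lowest in the cornus group, intermediate in the model group and highest in control. The sums, in CPM after TMM normalisation, were 1563, 1416, 1412 and 1398 in cornus samples 1 to 4, 1712, 1565, 1606 and 1791 in model samples, and 1875, 1863, 1833 and 2539 in controls. Every cornus sample and every model sample lay below every control, whereas the highest cornus sample and the lowest model sample nearly met. As shares of all counts, without TMM factors, the family took 0.1323% to 0.1451% in cornus, 0.1606% to 0.1946% in model and 0.1828% to 0.2415% in control. On that scale model 1 and model 4 lay within the control range, and all cornus samples remained below the other groups. Within the cornus group the highest sum belonged to cornus 1, the library with the least hemoglobin RNA (0.0218% of counts). Within control it belonged to control 4, the library with the most (9.8%). In the model group it belonged to model 4 (0.332%), which had neither the least nor the most of its group. A link between the family sum and hemoglobin RNA was not tested. In 66 of the 77 tested genes the group means lay in this same order, cornus below model below control. The share of all tested genes in this order was not counted. Control 4 lay above the mean of the other controls in 73 of the 77, which lifts the control means, and members vary together within the same libraries. No member that was lower in model was called higher in cornus against model. EdgeR called only 0.0797% of all tested genes higher there, so this says little about a return toward control.

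**Figure D1:**
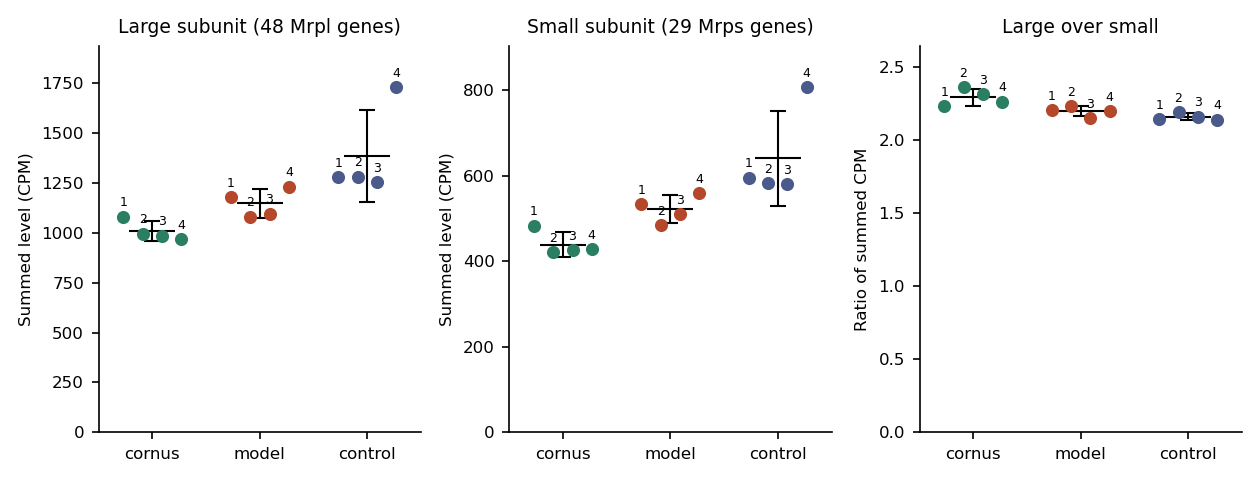
Summed level in CPM of the 48 large-subunit and 29 small-subunit genes, and the ratio of both sums, in each sample (numbered 1 to 4); bars are the group mean ± SD over 4 samples. Control 4 is the highest sample for both subunits, at 1730 and 808 CPM, and the ratio lies between 2.14 and 2.36 in all samples.

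Per unit of length and library size, in the deposited FPKM, the members differed widely in level. The median over the large-subunit genes was 7.28 ± 0.204 FPKM in cornus, 9.46 ± 0.961 FPKM in model and 11.1 ± 2.03 FPKM in control (mean ± SD over 4 samples). Over the small-subunit genes it was 4.29 ± 0.435 FPKM in cornus, 5.19 ± 0.441 FPKM in model and 7.07 ± 1.23 FPKM in control. Both medians were lowest in cornus and highest in control. The highest mean over 12 samples was that of Mrps21, at 43.7 FPKM, related to bacterial S21 of the small-subunit platform. Mrpl18 (26.5 FPKM), Mrpl28, Mrpl24 (22.8 FPKM) and Mrpl2 (21.4 FPKM) followed. All of these have bacterial counterparts. At the low end were Mrps6 (0.93 FPKM), Mrps10 (1.34 FPKM), Mrps25 (2.07 FPKM), Mrps34 (2.12 FPKM) and Mrps35 (2.28 FPKM), all of the small subunit. Mrpl53, a protein of the large-subunit stalk, was listed at 0 counts in all 12 samples and was not tested. Its deposited span lies over that of Gm42688 on the same strand.

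In the model group against control, 27 of the 77 members fell and 0 rose. By the same rule 15.8% of all tested genes fell and 17.7% rose, against 35.1% and 0% of the members. The log2 changes had a median of -0.29, quartiles of -0.57 and -0.11 and were below 0 in 70 of 77 members. All tested genes had a median of -0.00, and 50.2% of them were below 0. In 29 members every model sample lay below every control, against 20.8% of all genes. The large subunit had 15 of 48 genes lower and the small subunit 12 of 29. The count is sensitive to single libraries and to the unit: in the fit of all samples it was 29 (20.9% of all genes). Without model 3 it was 19 (2166 of the 12549 genes tested), and limma on log2(FPKM + 1) gave 19 (16.7% of all genes). With controls 1 to 3 summed it was 30 (16.2% of all genes) and the median was -0.37. Without control 4 it was 22 (18% of all genes) and the median was -0.17.

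The largest falls in the model group came from proteins of both subunits. Mrps6, related to bacterial S6, had 0.926, 0.686, 1.36 and 1.05 CPM in model samples 1 to 4 and 2.08, 2.19, 1.30 and 2.85 CPM in controls. Its log2 change was -1.05 ± 0.29 (SE; edgeR adjusted p = 0.0118), the groups overlapped through model 3 and control 3, and its counts per library were among the fewest of the family. Mrpl14, which lies where the subunits meet, had 5.62, 6.45, 4.56 and 7.33 CPM in model samples and 11.1, 8.76, 10.6 and 16.8 CPM in controls (log2 change -0.97 ± 0.22, edgeR adjusted p = 0.0042). The groups did not overlap. Mrps21 had 21.3, 18.6, 25.8 and 29.5 CPM in model samples and 43.0, 43.3, 40.1 and 60.2 CPM in controls, a log2 change of -0.97 ± 0.18 (edgeR adjusted p = 0.00112). This member, the highest per length, thus stood clear of control in every model library. Mrpl43, a mitochondria-specific large-subunit protein, fell by 0.92 ± 0.18 on the log2 scale, and Mrps24, the counterpart of bacterial S3 at the mRNA entry, by 0.90 ± 0.22.

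Mrpl52, Mrpl28 and Mrps12 completed the 8 largest falls of the model group. Mrpl28, related to bacterial L28, had 25.7, 26.9, 26.0 and 29.9 CPM in model samples and 38.5, 38.7, 38.4 and 73.7 CPM in controls (log2 change -0.80 ± 0.20, edgeR adjusted p = 0.00673). Mrps12, the protein of the decoding centre, had 9.51, 8.92, 7.62 and 9.04 CPM in model samples and 12.8, 12.8, 12.8 and 22.7 CPM in controls (log2 change -0.80 ± 0.21, edgeR adjusted p = 0.0087). In both genes controls 1 to 3 were nearly level and control 4 was far higher. Deposited spans of Mrps6, Mrpl14, Mrpl43 and Mrps24 share bases with other genes (Slc5a3, Tmem63b, Twnk and Urgcp among them). Slc5a3 lies on the strand of Mrps6 and Urgcp on that of Mrps24, so strand cannot separate their reads in shared bases. Tmem63b and Twnk lie on the strand opposite to Mrpl14 and Mrpl43. The strand setting of the counting is not given, so whether reads of those pairs were separated is not known.

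Few members ran the other way. Mrpl19, related to bacterial L19, had 52.7, 41.5, 49.4 and 52.5 CPM in model samples and 37.2, 35.4, 37.9 and 37.1 CPM in controls. Every model sample lay above every control, with a log2 change of 0.41 ± 0.11. The edgeR adjusted p was 0.0105 with all samples and 0.0592 with controls 1 to 3 summed, so it does not count as a rise. Mrps18b and Mrps2 had log2 changes of 0.27 ± 0.15 and 0.13 ± 0.12 and did not pass. Mrpl44, Mrpl30 and Mrpl3 were nearest to 0, each with a log2 change of -0.01 and a standard error of 0.10 to 0.14.

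In the cornus group against control, 57 of the 77 members fell and 0 rose. Of all tested genes 19.7% fell and 18.6% rose, against 74% and 0% of the members. The median log2 change was -0.53, with quartiles of -0.76 and -0.32, and 74 of 77 members were below 0, whereas all tested genes had a median of -0.02 and 51.3% below 0. In 51 members every cornus sample lay below every control, against 24.4% of all genes. Of the large subunit 36 of 48 fell, and of the small subunit 21 of 29. With controls 1 to 3 summed the median was -0.67, and without control 4 it was -0.40 with 47 members lower (19.7% of all genes). The 27 genes that fell in model all fell in cornus as well (11.9% of all tested genes were lower in both), 30 fell in cornus alone and 20 in neither. Both comparisons share the same controls, so these counts are set side by side only.

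**Figure D2:**
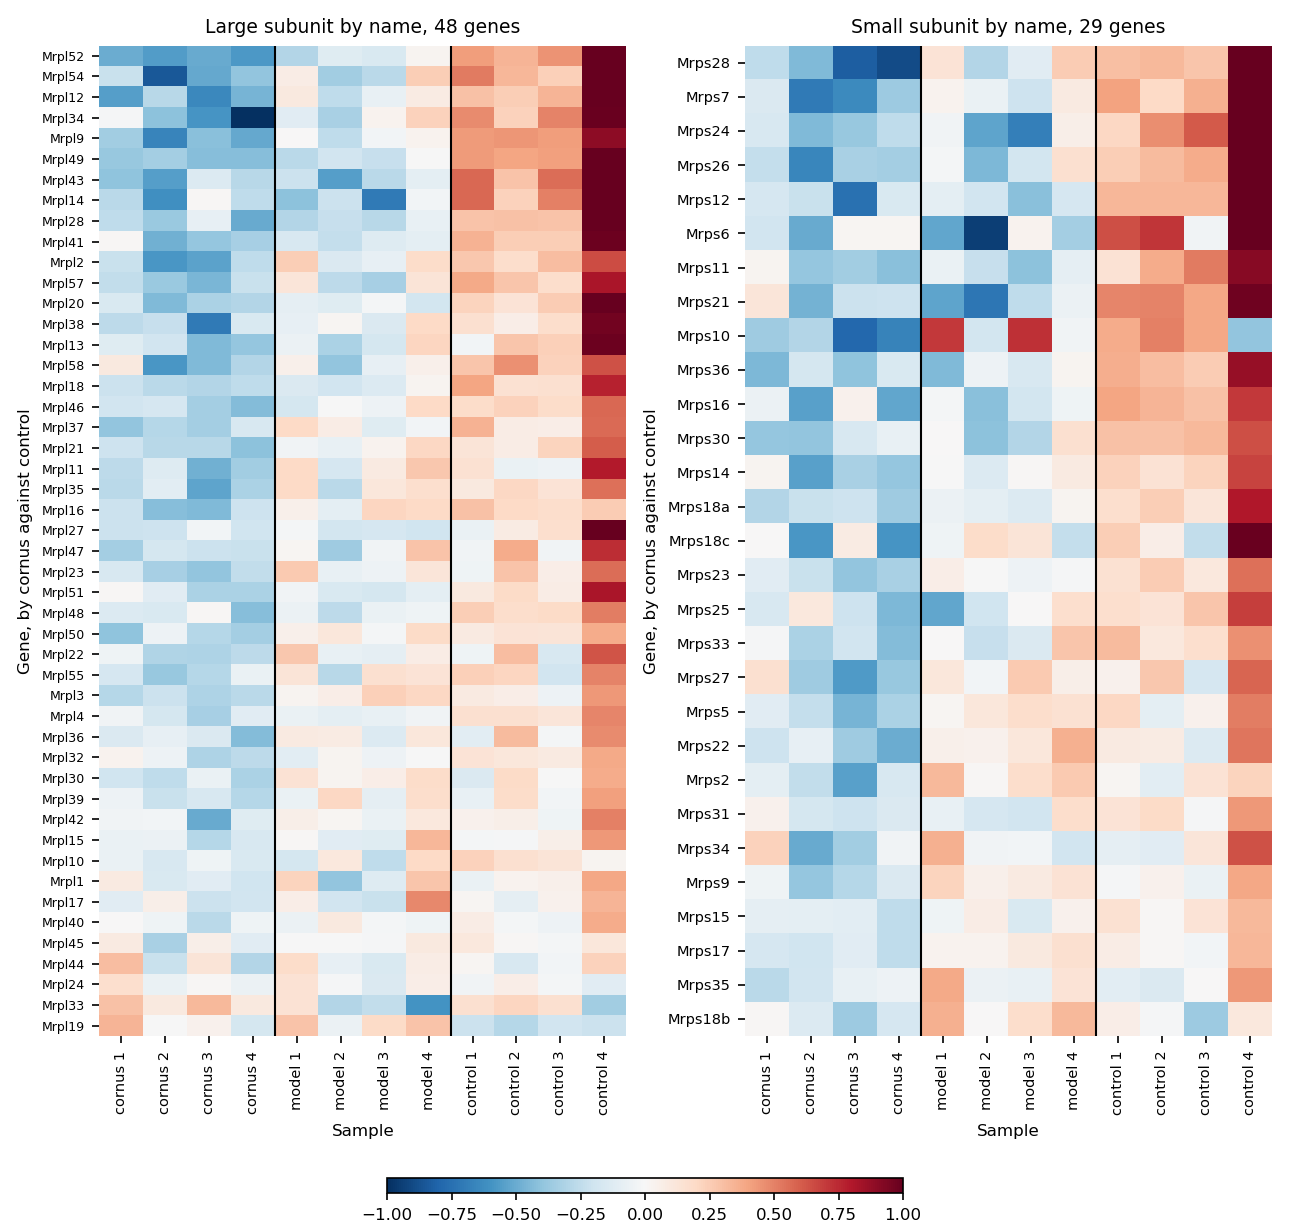
Each tested member in each of the 12 samples, as log2 CPM minus the gene's mean over all samples, with the 48 large-subunit genes left and the 29 small-subunit genes right, ordered by the cornus against control change; colours end at -1 and 1. Control 4 is above the other controls in 73 of the 77 genes, and Mrpl19, Mrpl33 and Mrpl24 are the 3 genes with a cornus against control change above 0.

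Mrps28, Mrpl52, Mrpl54, Mrpl12, Mrpl34 and Mrpl9 each fell by more than 1 on the log2 scale in the cornus group. Gene coordinates here and below are as deposited, unlike those of the promoters further below. Mrps28 (chr3:8867206-8988978, minus strand) is related to the bacterial mRNA-binding protein S1. It had 5.50, 4.82, 3.70 and 3.52 CPM in cornus samples 1 to 4 and 8.08, 8.23, 7.97 and 18.9 CPM in controls. The groups did not overlap and the log2 change was -1.30 ± 0.29 (edgeR adjusted p = 0.00412). Mrpl52 (chr14:54664366-54667213, plus strand), of the central protuberance on top of the large subunit, had 5.57, 5.32, 5.52 and 5.28 CPM in cornus samples, 6.42, 7.21, 7.07 and 7.98 CPM in model samples and 10.5, 9.94, 10.7 and 21.6 CPM in controls. Its 3 groups did not overlap at all, and cornus against control gave -1.28 ± 0.23 (edgeR adjusted p = 0.00119). Mrpl54 (chr10:81100547-81102768, minus strand), of the stalk, had 8.21, 5.32, 6.73 and 7.30 CPM in cornus samples and 13.8, 12.1, 11.3 and 21.8 CPM in controls, a log2 change of -1.10 ± 0.23 (edgeR adjusted p = 0.00259).

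Mrpl12 (chr11:120375439-120379891, plus strand) is the stalk protein related to bacterial L7/L12 and has been reported to bind the mitochondrial RNA polymerase. It had 15.7, 19, 14.7 and 16.6 CPM in cornus samples, 24.6, 19.3, 21.8 and 24.3 CPM in model samples and 28.2, 27.2, 29 and 52.9 CPM in controls. Its 3 groups lay in order without overlap, and the log2 change of cornus against control was -1.06 ± 0.20 (edgeR adjusted p = 0.00158). Mrpl34 (chr8:71917603-71918391, plus strand), related to bacterial L34, had 9.29, 7.05, 6.20 and 4.61 CPM in cornus samples and 13, 11.0, 13.2 and 18.6 CPM in controls, a log2 change of -1.04 ± 0.22 (edgeR adjusted p = 0.00315). Mrpl9 (chr3:94350625-94358437, plus strand), related to bacterial L9, had 20, 16.1, 19.1 and 17.9 CPM in cornus samples, 25.6, 21.4, 25 and 26.1 CPM in model samples and 34.2, 34.6, 34.0 and 47.3 CPM in controls. It had the smallest adjusted p of the family (log2 change -1.04 ± 0.12, edgeR adjusted p = 0.000116), and again no sample of one group reached into the next. With controls 1 to 3 summed its edgeR adjusted p was 0.00123.

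**Figure D3:**
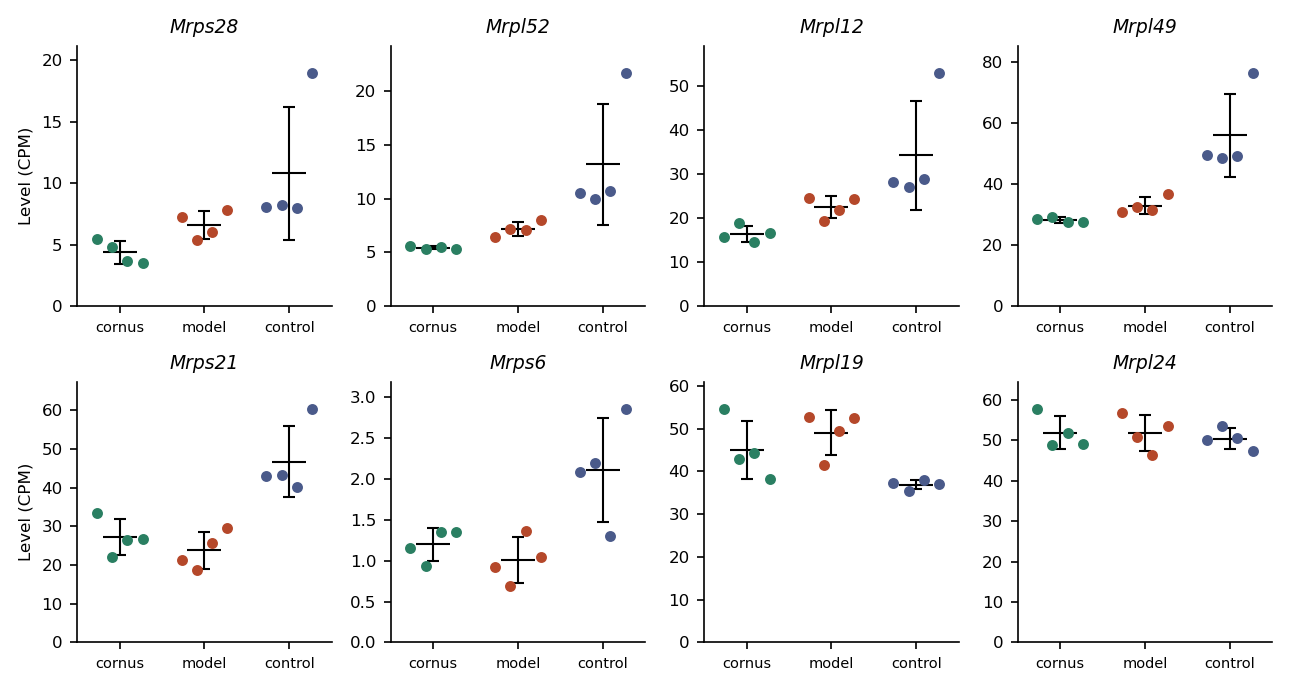
Level in CPM of 8 members in the cornus, model and control samples; points are samples in the order 1 to 4 and bars are the group mean ± SD. Mrpl52 and Mrpl12 step up from cornus through model to control, Mrps21 and Mrps6 are low in both cornus and model, and Mrpl19 and Mrpl24 are not lower in cornus than in control.

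Mrpl49 and Mrps7 followed. Mrpl49 (chr19:6103652-6107815, minus strand), a mitochondria-specific large-subunit protein, had 28.6, 29.4, 27.7 and 27.6 CPM in cornus samples and 49.8, 48.8, 49.4 and 76.4 CPM in controls, a log2 change of -0.99 ± 0.14 (edgeR adjusted p = 0.000273). Mrps7 (chr11:115494751-115498862, plus strand), related to bacterial S7, which organises the head of the small subunit, had 22.2, 15.0, 15.8 and 19.1 CPM in cornus samples and 32.5, 28.2, 31.4 and 50.5 CPM in controls, a log2 change of -0.98 ± 0.18 (edgeR adjusted p = 0.00143). Neither gene's groups overlapped. Mrpl9 shares bases with Oaz3, Mrpl49 with Syvn1 and Mrps7 with Gga3 and Mif4gd.

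Of the 20 tested members that did not fall, those nearest to 0 were Mrpl44, Mrpl24 and Mrpl45, all of which line the exit of the polypeptide tunnel. Mrpl24 (chr3:87826813-87830979, plus strand) had 57.6, 48.8, 51.7 and 49.1 CPM in cornus samples, 56.7, 50.7, 46.3 and 53.5 CPM in model samples and 50, 53.6, 50.5 and 47.4 CPM in controls, with a log2 change of cornus against control of 0.04 ± 0.08. The ranges of the 3 groups overlapped. Mrpl44 had a log2 change of -0.02 ± 0.14 and Mrpl45, known to anchor the ribosome to the inner membrane, one of -0.12 ± 0.09. Mrpl19 was higher in every cornus sample, at 54.5, 43.0, 44.4 and 38.3 CPM, than in any control, but its adjusted p was 0.0492 in edgeR with all samples and 0.17 with controls 1 to 3 summed. Mrpl33, related to bacterial L33, had 40.7, 35.6, 41.7 and 35.6 CPM in cornus samples, 36.7, 27.2, 28 and 22 CPM in model samples and 37.1, 38.6, 37.1 and 26.2 CPM in controls. It was the tested member with the largest positive change of cornus against model, 0.43 ± 0.16, which did not pass (edgeR adjusted p = 0.156), and in it control 4 was the lowest control.

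**Figure D4:**
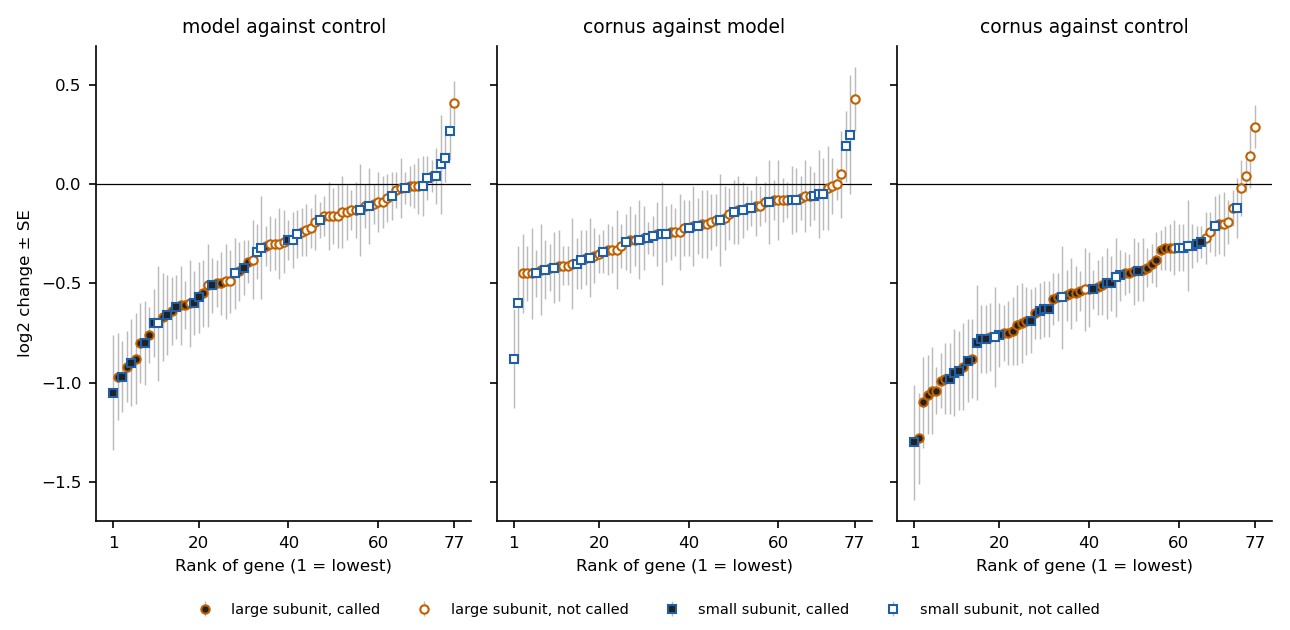
Log2 change ± SE of the 77 tested members in each comparison, ranked from lowest to highest; circles are large-subunit and squares small-subunit genes, and filled symbols passed edgeR's adjusted p of 0.05, in both fits where control is compared. Filled symbols number 27 for model against control, 0 for cornus against model and 57 for cornus against control, all below 0.

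Cornus against model, the comparison of both treated groups, gave 0 members higher and 0 lower by edgeR, against 0.0797% of all tested genes higher and 0.0717% lower. With controls 1 to 3 summed, edgeR called 0 members and 0 of all tested genes in either direction. At an unadjusted p under 0.05 in the fit of all samples, 21 members were lower and 1 was higher. Of all tested genes 10.8% were lower and 10% higher by that measure. DESeq2 called 6 lower (3.16% of all genes) and limma on log2(FPKM + 1) called 10 lower (3.92%), with 0 higher in both. Without control 4, a sample of neither group, edgeR called 16 lower (4.21% of the 12726 genes then tested). That fit also had its own filter and scaling, and the cause of the higher count was not tested. The median log2 change was -0.22, and 73 of 77 members were below 0, against -0.02 and 52.9% over all tested genes. In 22 members every cornus sample lay below every model sample, against 7.45% of all genes. Mrpl16, Mrpl3 and Mrps2 had the smallest unadjusted p, and were picked here after their values were seen. Mrpl3, a protein near the site of peptide bond formation, had 29.3, 30.8, 28.9 and 29.6 CPM in cornus samples and 36.4, 37.4, 42.2 and 41.2 CPM in model samples, a log2 change of -0.41 ± 0.10 (edgeR adjusted p = 0.0808). Mrps10 had the most negative value, -0.88 ± 0.25, with 7.90, 8.27, 5.86 and 6.37 CPM in cornus samples and 16.5, 8.92, 16.8 and 9.89 CPM in model samples.

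Besides Mrpl33, the members with positive changes of cornus against model were Mrps6 (0.25 ± 0.30), Mrps21 (0.19 ± 0.18) and Mrpl14 (0.05 ± 0.22). None of them passed. Mrpl24 (-0.00 ± 0.08), Mrpl44 (-0.01 ± 0.14) and Mrpl27 (-0.02 ± 0.21) were nearest to 0. Mrpl27, which reaches toward the peptidyl transferase centre in bacteria, had 8.13, 8.2, 9.29 and 8.24 CPM in cornus samples and 9.32, 8.31, 8.43 and 8.23 CPM in model samples, which overlap fully.

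The shift was present in both subunits. Large-subunit genes summed to 1080, 995, 986 and 969 CPM in cornus samples, 1178, 1081, 1096 and 1231 CPM in model samples and 1279, 1280, 1253 and 1730 CPM in controls. Small-subunit genes summed to 483, 421, 426 and 428 CPM in cornus samples, 534, 484, 510 and 560 CPM in model samples and 596, 583, 580 and 808 CPM in controls. The ratio of large to small was 2.24 to 2.36 in cornus, 2.15 to 2.24 in model and 2.14 to 2.19 in control, so that cornus lay slightly above control in every sample. Mrps18a and Mrps30 sit in the large subunit in structures of the mammalian ribosome, and Mrps36 has been assigned to the oxoglutarate dehydrogenase complex. With the genes sorted by structure the ratio was 2.49 to 2.69 in cornus, 2.42 to 2.52 in model and 2.46 to 2.52 in control, and cornus and control overlapped. Without Mrps21, the most abundant small-subunit mRNA per length, it was 2.4 to 2.5 in cornus, 2.27 to 2.32 in model and 2.31 to 2.37 in control.

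The median log2 changes of the subunits lay close to each other. For model against control they were -0.27 (large) and -0.32 (small), for cornus against model -0.22 and -0.25, and for cornus against control -0.53 and -0.57. Large minus small was 0.05 for model against control and 0.04 for cornus against control, and it turned to -0.02 in both when the genes were sorted by structure. Sorted by structure, the large subunit had 17 of 50 genes lower in model and 38 of 50 lower in cornus, and the small subunit 9 of 26 and 18 of 26. Mrps36 fell in both, with log2 changes of -0.62 in model and -0.76 in cornus. By ancestry, 35 of 46 genes with a bacterial counterpart and 21 of 30 mitochondria-specific genes fell in cornus. In model the counts were 14 of 46 and 12 of 30. By the same rule 19.7% of all tested genes fell in cornus and 15.8% in model.

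Within the large subunit, 3 sites were set apart. The stalk, which recruits translation factors, had 4 tested genes: Mrpl12 and Mrpl54 fell in both treated groups, Mrpl11 in cornus only (log2 change -0.55), and Mrpl10 had -0.16 in model and -0.24 in cornus without passing. Of the 9 genes of the central protuberance, 3 fell in model (Mrpl18, Mrpl48 and Mrpl52) and 7 in cornus. Mrpl18, which binds the structural tRNA there, had 31.2, 30.0, 29.6 and 30.4 CPM in cornus samples, 32.7, 31.7, 33.0 and 37.0 CPM in model samples and 47.7, 40.2, 40.4 and 61.7 CPM in controls. Both treated groups lay below all controls, with log2 changes of -0.65 ± 0.13 in cornus and -0.50 ± 0.12 in model. Of the 8 genes around the tunnel exit, 0 fell in model (median -0.05) and 4 fell in cornus (median -0.26), namely Mrpl22, Mrpl23, Mrpl39 and Mrpl47. By the same rule 15.8% of all tested genes fell in model and 19.7% in cornus. For as few as 8 genes, 0 lower in model is near that share. The difference between sites was not tested.

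Some proteins of the same ribosome carry other names and were looked at beside the family. Dap3, Aurkaip1, Chchd1 and Gadd45gip1 fell in both treated groups, with log2 changes in cornus of -0.60 ± 0.15, -0.73 ± 0.16, -0.91 ± 0.17 and -1.26 ± 0.34, and in model of -0.55 ± 0.15, -0.72 ± 0.16, -0.67 ± 0.16 and -1.27 ± 0.34. Ptcd3 did not pass in either. Assembly factors and rRNA-modifying enzymes had 11 of 26 genes lower and 1 higher in cornus (42.3% lower, against 19.7% of all tested genes), and 5 lower and 1 higher in model (19.2% lower, against 15.8%). Among them Mettl17, of small-subunit assembly, and Ngrn, needed for the large-subunit rRNA, fell by 0.71 ± 0.12 and 0.70 ± 0.10 in cornus, and Gtpbp8 rose by 0.47 ± 0.11. Of 15 tested translation factors 3 fell and 0 rose in cornus (20% lower, against 19.7% of all tested genes), while 1 fell and 3 rose in model (20% higher, against 17.7%). These shares were near the background. Tufm, the elongation factor that brings tRNA to the ribosome, averaged 36.2 ± 3.87 CPM in cornus, 40.3 ± 5.98 CPM in model and 62 ± 12.7 CPM in control, and it fell in both. Mtfmt, Guf1 and Mtrf1 were the 3 that rose in model, by 0.41 ± 0.10, 0.50 ± 0.12 and 0.66 ± 0.18. Of 17 mitochondrial aminoacyl-tRNA synthetases 4 fell and 0 rose in cornus (23.5% lower, against 19.7% of all tested genes), and 1 fell and 2 rose in model (11.8% higher, against 17.7%). Those that rose in model were Mars2, by 0.73 ± 0.10, and Iars2, by 0.41 ± 0.08.

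Other large groups of nuclear genes were set beside the family. Cytosolic ribosomal proteins had 58 of 82 tested genes lower in cornus and 19 of 82 in model, with median log2 changes of -0.57 and -0.29. The family had medians of -0.53 in cornus and -0.29 in model, with 74% and 35.1% of its genes lower. Nuclear-encoded respiratory chain subunits had 68 of 82 lower in cornus (82.9%) and 52 of 82 in model (63.4%), with medians of -0.62 and -0.47. Translation factors had medians of -0.06 in cornus and 0.13 in model, and aminoacyl-tRNA synthetases -0.22 and 0.10. For cornus against model the medians were -0.22 for the mitochondrial ribosomal proteins, -0.28 for the cytosolic ones and -0.15 for the respiratory subunits, and edgeR called 0 genes in each. The sum over the family was 28.8% to 30.8% of that over the respiratory subunits in cornus samples, 29% to 31.3% in model samples and 27.9% to 28.8% in controls.

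The mRNAs that this ribosome translates were also measured. The proteins of the mitochondrial genome, 12 tested, had 3 higher and 2 lower in cornus and again 3 higher and 2 lower in model, with medians of -0.01 and 0.06. That is 25% higher and 16.7% lower in both, near the shares of all tested genes (18.6% and 19.7% in cornus, 17.7% and 15.8% in model). Their sums were 19009 to 24024 CPM in cornus, 19316 to 23006 CPM in model and 14923 to 16607 CPM in control, so every treated sample lay above every control. mt-Nd5 averaged 2450 CPM in cornus, 2273 CPM in model and 1056 CPM in control, and rose by 1.21 ± 0.17 in cornus and 1.11 ± 0.17 in model. mt-Co1 rose by 0.57 ± 0.14 in each. mt-Nd3 went the other way, with log2 changes of -1.06 ± 0.22 in cornus and -0.67 ± 0.21 in model.

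**Figure D5:**
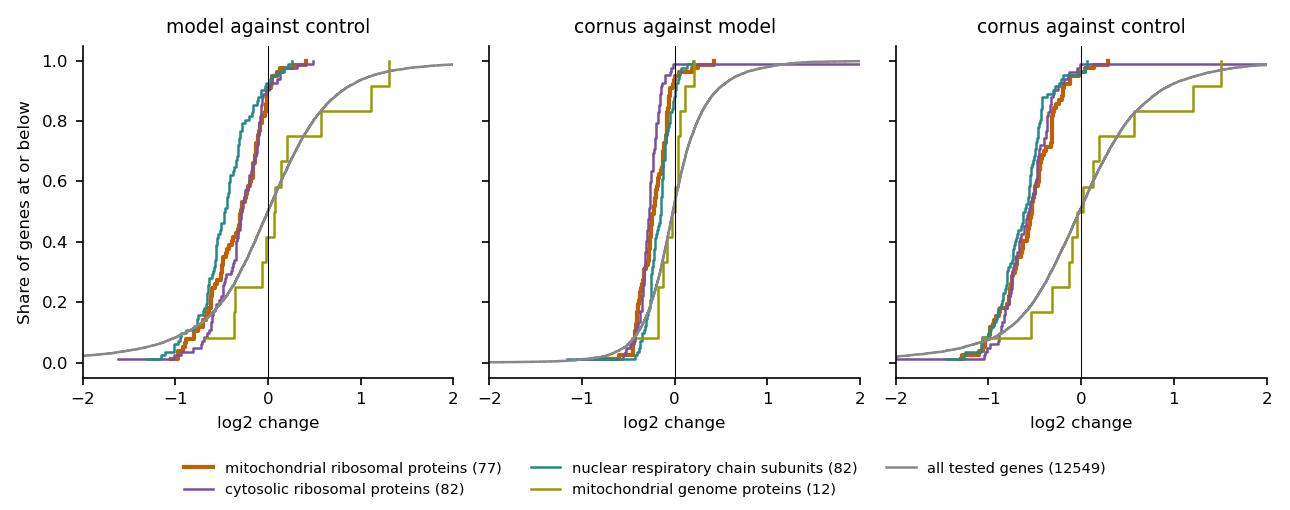
Cumulative share of genes at or below a given log2 change, for the 77 mitochondrial ribosomal proteins, 82 cytosolic ribosomal proteins, 82 nuclear respiratory chain subunits, 12 mitochondrial genome proteins and all 12549 tested genes; the axis is cut at -2 and 2. The family's curve crosses the middle at -0.29, -0.22 and -0.53 in the 3 comparisons, left of that of all genes in each.

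Among regulators known for nuclear genes of mitochondria, Gabpa and Gabpb2 rose in both treated groups. Gabpa, the DNA-binding subunit of the ETS factor GABP, averaged 120 CPM in cornus, 125 CPM in model and 81.3 CPM in control, a rise of 0.56 ± 0.11 in cornus (edgeR adjusted p = 0.0021) and of 0.62 ± 0.11 in model. Gabpb2 rose by 0.44 ± 0.09 in cornus and 0.59 ± 0.09 in model. Ppargc1b rose by 1.62 ± 0.32 in model, at 4.99 CPM against 1.62 CPM in control. Of 9 tested regulators 2 rose and 0 fell in cornus (22.2% higher, near the 18.6% of all tested genes), and 3 rose and 0 fell in model (33.3%, against 17.7%). Of the 12 genes of mitochondrial DNA maintenance and transcription, 5 fell and 1 rose in cornus (41.7% lower, against 19.7% of all tested genes), and 2 fell and 1 rose in model (16.7% lower, against 15.8%). Tfam of this list, which packages the mitochondrial genome and takes part in its transcription, fell by 0.68 ± 0.10 in cornus.

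Promoters of members most reduced in cornus are shown because GABP and NRF1 are known for binding promoters of such genes. The genes were picked for their falls, so their common direction is not a result. A part of GABP or NRF1 in these falls was not tested. RefSeq (GRCm38.p6) gave an entry for 69 members with 75 start sites. Mrps28 and Mrpl54 were not among them. Promoter coordinates are those of GRCm38.p6. They do not match the deposited gene coordinates, whose build is not given, and cannot be set against them. Below are the 250 bases before the start of Mrpl52 (chr14:54426659-54426908, plus strand), Mrpl12 (chr11:120484387-120484636, plus strand), Mrpl34 (chr8:71464676-71464925, plus strand) and Mrpl9 (chr3:94443086-94443335, plus strand), 5′ to 3′. Capitals mark the ETS core CCGGAAG on either strand or the NRF1 core GCATGCGC on either strand, wherever present.
Mrpl52: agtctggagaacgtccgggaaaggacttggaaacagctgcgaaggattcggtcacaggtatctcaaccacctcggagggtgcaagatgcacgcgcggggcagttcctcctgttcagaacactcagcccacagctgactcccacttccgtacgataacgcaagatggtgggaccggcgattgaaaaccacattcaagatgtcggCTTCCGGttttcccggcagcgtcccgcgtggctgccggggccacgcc
Mrpl12: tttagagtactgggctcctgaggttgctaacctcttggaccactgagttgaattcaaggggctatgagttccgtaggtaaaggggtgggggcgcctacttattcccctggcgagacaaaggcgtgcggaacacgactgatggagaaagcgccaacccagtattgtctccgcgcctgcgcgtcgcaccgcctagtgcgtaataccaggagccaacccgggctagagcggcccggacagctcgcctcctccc
Mrpl34: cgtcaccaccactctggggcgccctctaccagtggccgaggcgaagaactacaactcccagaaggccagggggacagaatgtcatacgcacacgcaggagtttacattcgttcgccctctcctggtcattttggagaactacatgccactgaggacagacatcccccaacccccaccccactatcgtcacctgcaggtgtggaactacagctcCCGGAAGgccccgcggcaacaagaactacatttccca
Mrpl9: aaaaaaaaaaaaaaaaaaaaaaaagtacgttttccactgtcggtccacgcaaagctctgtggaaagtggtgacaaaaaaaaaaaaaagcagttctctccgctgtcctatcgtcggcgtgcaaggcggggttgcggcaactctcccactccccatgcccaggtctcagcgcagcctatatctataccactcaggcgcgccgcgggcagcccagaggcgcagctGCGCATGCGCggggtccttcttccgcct

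Mrpl52 holds the ETS core on the reverse strand 47 to 41 bases before the start, and Mrpl34 holds it on the forward strand 37 to 31 bases before. Mrpl9 holds 2 overlapping matches to the NRF1 core, 28 to 21 and 26 to 19 bases before the start. In Mrpl12 neither motif occurs in this window. Searched on both strands over 250 bases before and 50 after each start, the ETS core occurred in 34.7% of the members' promoters, against 17% of the promoters of tested genes and 8.86% of all. The NRF1 core occurred in 10.7% of the members' promoters, against 5.01% and 2.71%, and the YY1 core AAGATGGC in 16%, against 4.29% and 2.75%. The GC box GGGCGG was in 52%, against 60.4% and 35.7%. Between members that fell in cornus and those that did not, the ETS core was in 32.8% of 58 promoters and 37.5% of 16, and the NRF1 core in 6.9% and 25%. The same letters were counted in other groups. The ETS core was in 35.1% of the promoters of cytosolic ribosomal proteins and 23.6% of those of respiratory subunits, the NRF1 core in 4.05% and 13.9%, and the YY1 core in 10.8% and 13.9%. A match is a run of letters and not a measured binding site.

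The family is spread over 17 chromosomes. In the deposited coordinates 18 of the 78 members (23.1%) start head to head with another gene, within 1000 bp on opposite strands, against 6.77% of all genes. Examples are Mrpl54 with Apba3 at 26 bp, Mrpl49 with Fau at 59 bp and Mrps12 with Sars2, the mitochondrial seryl-tRNA synthetase, at 172 bp. In addition, 25 members (32.1%) share bases with another gene, against 21% of all genes. Mrpl46 and Mrps11, of opposite subunits, overlap each other.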

How the data were processed

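Libraries were made from mouse bone marrow RNA by poly-T selection, per the labels' protocols. The submitters' processing notes name fastp 0.22.0 for reads, HISAT2 2.1.0 as the aligner and HTSeq 0.9.1. The genome build, annotation and strand setting are not given in the sources used here, and gene coordinates are as deposited. The authors deposited whole-number counts per gene and sample, which were tested, and FPKM, which equalled count over length and 1 factor per library. Levels are given as CPM scaled with TMM factors.

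The main test was that of edgeR 4.0.16, under R 4.3.3, on the counts of 12549 genes (TMM, filterByExpr, quasi-likelihood F test, all 12 samples, group as the only term, Benjamini-Hochberg adjustment over all genes, threshold 0.05). Standard errors come from the log2 change and the F value. The fit was repeated with controls 1 to 3 summed to 1 sample, and a call against control needed both. DESeq2 1.42.0, limma 3.58.1 on FPKM, other factors and filters, and leaving out each sample were alternatives. Totals of 13902122 to 19139771 counts limit the precision of genes with few counts, and standard errors reflect the spread between samples. The content of 1 line of the table was not analysed here.

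Members, lists, rules and tests were chosen with earlier results of these data known. Members named with values are the 8 largest falls per comparison among those called, 3 against the common direction, the 3 smallest changes, the 5 highest and 5 lowest mean FPKM, and every untested member; of other lists, up to 4 with the smallest p. Mrpl10, Mrpl11, Mrpl16, Mrps36, other members of the 3 large-subunit sites, and Gtpbp8 were named after their values were seen. Promoters come from RefSeq, GRCm38.p6.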

Additional observations from a re-analysis of the deposited data

Results flagged for a closer look

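Within each group of 4 samples, a sample was listed when its gap to the nearest other sample, over the group's range, passed Dixon's critical value, in 105 group tests of 35 sums and named genes. Chance alone would list about 1 in 20 independent groups. These groups are not independent, because all items come from the same libraries and the sums contain the named genes. Several genes were also named for falls against control, which a high control makes larger. The count of listed groups is therefore not set against chance. In all 18 were listed, 13 of them in control. In 12 of these control 4 was the high sample. Its family sum was 2539 CPM, its large-subunit sum 1730 CPM and its small-subunit sum 808 CPM. The same library was high in Mrpl12 (52.9 CPM), Mrpl27 (19.3 CPM), Mrpl28 (73.7 CPM), Mrpl49 (76.4 CPM), Mrpl52 (21.6 CPM), Mrpl9 (47.3 CPM), Mrps12 (22.7 CPM), Mrps21 (60.2 CPM) and Mrps28 (18.9 CPM). In Mrpl33 control 4 was instead the low sample, at 26.2 CPM.

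In the cornus group, cornus 1 was high in the family sum (1563 CPM) and the small-subunit sum (483 CPM). Cornus 3 was high in Mrpl27 (9.29 CPM) and low in Mrps12 (6.06 CPM). In the model group, model 4 was high in Mrpl45, at 41.2 CPM.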

How the results depend on the processing

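The median log2 change of the family stayed below 0 in each comparison under every alternative tried, between -0.37 and -0.17 (-0.17 without control 4, and also with limma on FPKM at a pseudocount of 1 or with no filter) for model against control, -0.32 and -0.16 for cornus against model and -0.67 and -0.40 for cornus against control. In the fit of all samples 29 members were lower and 1 higher in model, and 59 lower and 1 higher in cornus, against control. Of the 12549 genes tested, 2624 were lower and 2907 higher in model, and 2959 lower and 3013 higher in cornus. For model against control, limma on FPKM gave 19 lower with a pseudocount of 1, 18 with 0.1 and 15 without a filter, and leaving out 1 sample gave 19 to 33. Of the 12549 genes, 2091, 2014 and 1899 were lower in the 3 limma fits, and 2113 to 2681 with 1 sample left out. With controls 1 to 3 summed 0 members were higher. For cornus against model, DESeq2 called 6 lower, limma on FPKM 10, 10 and 6 in the order above, and leaving out 1 sample gave 0 to 16, with 16 only without control 4. The DESeq2 and limma fits called 396, 492, 473 and 292 of the 12549 genes lower, and without control 4 it was 4.21% of the genes then tested. With the FPKM pseudocount of 0.1 the median over all genes of that comparison was -0.13, and that of the family -0.32. For cornus against control the 1 gene higher, Mrpl19, was lost (0 higher) with upper-quartile factors, with no filter, in the 3 limma fits, with controls 1 to 3 summed and without model 1 and cornus 1, and leaving out 1 sample gave 0 to 1.

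The large minus small difference in median log2 change was 0.05, 0.04 and 0.04 in the 3 comparisons. For model against control it was 0.11 with controls 1 to 3 summed, -0.02 by structure and 0.03 to 0.11 with 1 sample left out. For cornus against model leaving out 1 sample gave -0.03 to 0.08. For cornus against control it was -0.03 with controls 1 to 3 summed, 0.07 without model 1 and cornus 1, -0.02 by structure and -0.01 to 0.12 with 1 sample left out. The cause was not tested. The fit without model 1 and cornus 1, the libraries with the least hemoglobin RNA, was chosen after seeing the data.

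Samples share replicate numbers across groups, but deviations of same-numbered samples correlated between -0.135 and 0.45 over 12 pairs, so the numbers were not taken to pair them. With the replicate block 28 members were lower and 1 higher in model against control, 56 lower and 1 higher in cornus against control, and 0 in cornus against model. In that fit 2804 of the 12549 genes tested were lower in model against control, 3151 in cornus against control and 0 in cornus against model. Genes at a few counts per library, Mrps6 above all, are limited by depth.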
